A study of Homo sapiens with 6 samples.

Results

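The genes described here make and handle cholesterol: 32 members, of 60691 genes in the deposited table, chosen by symbol from the steps of cholesterol synthesis, the SREBP factors that control it, and the uptake, efflux and storage of sterol. Of these, 7 are mevalonate enzymes, 12 are sterol enzymes, and 4 belong to sterol sensing and the SREBP factors. A further 3 move cholesterol out of or between organelles, 5 belong to the LXR and efflux arm, and 1 esterifies cholesterol. RNA was sequenced from SW1353 cells, an established human chondrosarcoma line (a cartilage-forming tumour of bone), in 2 groups of 3 biological replicates. The shSIRT1 group carried a lentiviral hairpin labelled for SIRT1, an NAD+-dependent deacetylase, and the shfirefly control group carried a lentiviral hairpin against firefly luciferase. Both groups were transduced, and both were held in 3% oxygen for 48 h after seeding, so the controls were hypoxic too. The labels disagree on the hairpin: titles and treatment tags name SIRT1, whereas the treatment protocol names EPAS1, the gene of HIF-2α. Each hairpin is known by its target's name alone, and the study's title places the comparison on an axis of SIRT1 and HIF-2α.

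Cholesterol is built from acetyl-CoA in the mevalonate pathway, whose product, farnesyl diphosphate, also feeds prenylation, dolichol and ubiquinone. Squalene synthase commits farnesyl diphosphate to sterols, and a chain of enzymes in the endoplasmic reticulum then folds squalene into lanosterol and trims it to cholesterol. When membrane sterol is low, the escort protein SCAP carries SREBP precursors to the Golgi for cleavage, and the released factor switches on synthesis and uptake genes. INSIG proteins hold SCAP back when sterol is plentiful, and LXR receptors, sensing oxysterols, switch on efflux.

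The libraries held 24993064 to 32044191 counts, the shSIRT1 replicate 3 library being the smallest. SIRT1 stood at 13.6 ± 0.952 CPM in shSIRT1 cells and 24.9 ± 0.983 CPM in shfirefly cells (CPM, read counts divided by TMM-scaled library size; SD, n = 3 each), and EPAS1 was at 232 ± 10.5 CPM in shSIRT1 cells and 456 ± 40.7 CPM in shfirefly cells. Both genes fell (adjusted p = 2.3e-09 for SIRT1 and 5.8e-07 for EPAS1, edgeR quasi-likelihood test), so their levels do not settle which name is right. Of 12 cartilage markers, 5 had at least 10 counts in each library, led by SOX9, while COL2A1 had 0 to 19 counts and COL9A1 had none. Among those 5, SOX9 and MATN3 rose (log2 fold change 0.28 and 0.35), ACAN and HAPLN1 fell (-1.16 and -0.91), and COL11A2 did not pass. Leukocyte markers summed to 0.293 to 0.619 CPM in shSIRT1 libraries and 0.677 to 0.911 CPM in shfirefly libraries. Epithelial markers summed to 1.718 to 2.77 CPM in shSIRT1 libraries and 1.985 to 2.476 CPM in shfirefly libraries. Endothelial markers summed to 1.107 to 1.825 CPM in shSIRT1 libraries and 1.985 to 2.965 CPM in shfirefly libraries. P-values set the difference between the groups against the spread between these replicates. Spread between different hairpins of the same target is not part of them. In bulk RNA a change in all cells cannot be told apart from a larger change in some of them.

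Of 19 synthesis enzymes 12 were higher in shSIRT1 cells, 3 were lower and 4 did not pass; without shfirefly replicate 1 the number higher was 6, and with upper-quartile scaling 7. INSIG1, NPC1 and ABCA1, genes of feedback and transport, were lower by a larger factor, and the esterifying enzyme SOAT1 was higher. Of 31 members tested, 23 changed (adjusted p under 0.05), 13 higher and 10 lower in shSIRT1. That is 74.2% of those tested, beside 52.8% of all 16591 genes tested, of which 26.8% were called higher and 26.0% lower. Among genes averaging at least 10 CPM, 67.3% were called (36.5% higher and 30.8% lower), and of 27 such members 13 rose and 9 fell. The median log2 fold change was 0.04 over the tested members and 0.005 over all tested genes. Libraries of the groups did not overlap for 22 members, where 59.7% of all tested genes did not overlap. ABCG1 was too low to be tested and is given by its counts. Exons of ACAT2, HMGCS1, MVK, IDI1, FDPS, FDFT1, LSS, CYP51A1, SREBF1, SREBF2, NPC1, NPC2, STARD4 and NR1H3 overlap a gene on the other strand, and whether the counting used strand is not known, so their reads may include those of the partner.

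**Figure D1:**
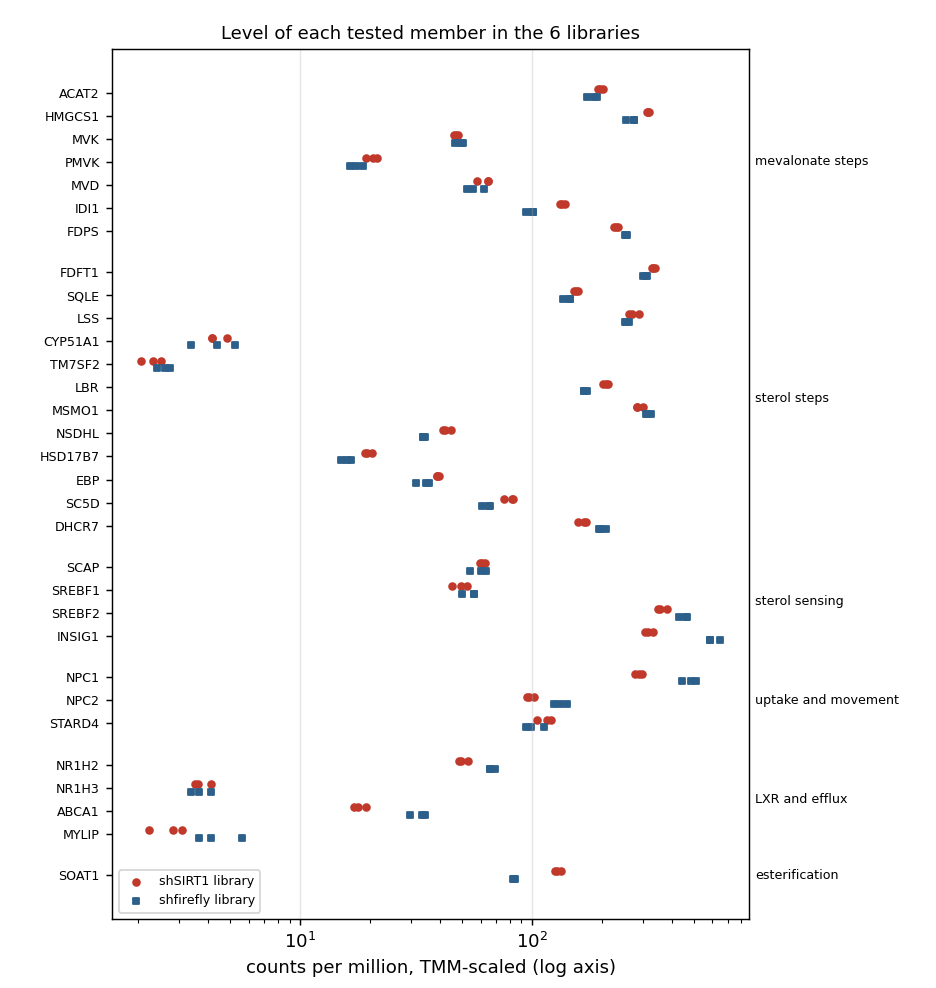
Level of each of the 31 tested members in CPM (TMM-scaled, log axis), 1 point per library, with shSIRT1 libraries as circles above shfirefly libraries as squares. INSIG1 lies at 307 to 332 CPM in shSIRT1 libraries and 586 to 646 CPM in shfirefly libraries, and most enzymes lie much closer together.

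Of the 7 mevalonate enzymes 4 rose, 1 fell and 2 did not pass, with a median log2 fold change of 0.13. So 71.4% were called, beside 52.8% of all genes tested and 67.3% of those averaging at least 10 CPM. IDI1, the isomerase that makes dimethylallyl diphosphate, had 134, 133 and 138 CPM in the shSIRT1 libraries, against 93.7, 101 and 101 CPM in the shfirefly libraries. No shSIRT1 library reached down to the control range, and the rise was 1.37-fold (log2 fold change 0.45 ± 0.04 SE, adjusted p = 9.7e-09). HMGCS1, the HMG-CoA synthase, had 317, 312 and 318 CPM in shSIRT1 libraries, against 253, 275 and 275 CPM in shfirefly libraries. Its rise was 1.18-fold (log2 difference 0.24 ± 0.04 SE, adjusted p = 2.2e-05), with the shfirefly replicate 1 library the lowest of all, and it stood at 0.125 once GC content and length were corrected for (adjusted p = 0.013). ACAT2, the thiolase that begins the pathway, and the phosphomevalonate kinase PMVK rose 1.08-fold and 1.16-fold (adjusted p = 0.028 and 0.019). With that correction PMVK stood at 0.371 and IDI1 at 0.363 on the log2 scale, so the order of the mevalonate steps by size depends on it.

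The step after IDI1 went the other way. FDPS, which joins the isoprene units into farnesyl diphosphate, had 234, 229 and 225 CPM in shSIRT1 libraries, against 252, 256 and 254 CPM in shfirefly libraries, a narrow but complete separation. FDPS fell by 0.15 on the log2 scale (SE 0.04, adjusted p = 0.0014), and it no longer passed once transcript length and GC content were corrected for (-0.03, adjusted p = 0.51) or with library totals as the scaling (-0.03, adjusted p = 0.52). Mevalonate kinase, MVK, had a log2 fold change of -0.05 with a 95% interval of -0.16 to 0.05 (adjusted p = 0.41). The decarboxylase MVD had 0.13 with an interval of -0.0014 to 0.26 (adjusted p = 0.09). It was called higher under 6 of the 17 alternatives. Among them were the correction for GC content and length (0.283, adjusted p = 0.0003) and library totals as the scaling (0.251, adjusted p = 0.0026).

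Of 12 sterol enzymes, from squalene synthase onwards, 8 rose, 2 fell and 2 did not pass, with a median log2 fold change of 0.12. So 83.3% were called, beside 52.8% of all genes tested and 67.3% of those averaging at least 10 CPM. The difference between mevalonate and sterol steps was not tested. The order of these enzymes by size turned with the correction for GC content and transcript length: LBR stood at 0.123 and SC5D at 0.181 with it, against 0.295 and 0.322 without it, while EBP stood at 0.307, against 0.198, LSS at 0.196, against 0.098, and FDFT1 at 0.186, against 0.116. NSDHL, which strips carbon from the lanosterol core as a decarboxylating dehydrogenase, had 44.6, 42.2 and 41.1 CPM in shSIRT1 libraries, against 33.8, 34.5 and 34.0 CPM in shfirefly libraries. SC5D, the lathosterol oxidase that acts late in the chain, had 81.8, 75.6 and 82.6 CPM in shSIRT1 libraries, against 60.8, 66.1 and 65.1 CPM in shfirefly libraries. Both rose 1.25-fold with no overlap of the groups (adjusted p = 2.9e-05 for NSDHL and 8.7e-06 for SC5D). HSD17B7, the ketoreductase that works with NSDHL, rose 1.24-fold (adjusted p = 0.0014). Its near-identical pseudogene HSD17B7P2 held 105 to 124 counts in shSIRT1 libraries and 119 to 159 in shfirefly libraries, beside 497 to 625 and 405 to 508 for HSD17B7, so reads of the pair may be exchanged.

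The sterol reductase step can be done by LBR, which also anchors chromatin to the inner nuclear membrane, or by TM7SF2. LBR had 201, 212 and 208 CPM in shSIRT1 libraries, against 167, 168 and 172 CPM in shfirefly libraries, a 1.23-fold rise (log2 fold change 0.29 ± 0.04 SE, adjusted p = 8.2e-07). TM7SF2 was scarce, at 2.06 to 2.51 CPM in shSIRT1 libraries and 2.40 to 2.74 CPM in shfirefly libraries, and its log2 fold change of -0.17 had an interval of -0.53 to 0.19 (adjusted p = 0.44). Per kilobase of exon LBR stood 59.0 ± 5.71 times above TM7SF2 in shSIRT1 cells and 42.6 ± 2.49 times above it in shfirefly cells (SD, n = 3 each). TM7SF2 exons overlap those of VPS51 on the same strand, so its reads may be shared.

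FDFT1, the squalene synthase, SQLE, the squalene epoxidase that is a control point of the pathway, and LSS, the lanosterol synthase, rose 1.08-fold, 1.09-fold and 1.07-fold (adjusted p = 0.0084, 0.014 and 0.049). The groups overlapped for LSS. EBP, the sterol isomerase, rose by 0.20 on the log2 scale (adjusted p = 0.0061). Without the shfirefly replicate 1 library ACAT2, PMVK, FDFT1, SQLE, LSS and EBP no longer passed, with log2 fold changes of 0.062, 0.204, 0.091, 0.081, 0.078 and 0.139. Other single libraries mattered as well: PMVK was also lost without shSIRT1 replicate 2 or shfirefly replicate 3, ACAT2 without shSIRT1 replicate 1 or 2, SQLE without shSIRT1 replicate 3, and LSS without shSIRT1 replicate 1 (0.053) or 2 or shfirefly replicate 3. HMGCS1, IDI1, LBR, NSDHL, HSD17B7 and SC5D passed without it and under each of the 17 alternatives tried.

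DHCR7 and MSMO1 fell. DHCR7, a reductase that acts at the end of the chain, had 171, 168 and 158 CPM in shSIRT1 libraries, against 196, 209 and 195 CPM in shfirefly libraries. Every shSIRT1 library was below every control library, and the fall was 1.21-fold (log2 fold change -0.27 ± 0.04 SE, adjusted p = 8.6e-06). MSMO1, the methylsterol monooxygenase, had 299, 284 and 283 CPM in shSIRT1 libraries, against 310.2, 327 and 313 CPM in shfirefly libraries. MSMO1 fell by 0.13 on the log2 scale (SE 0.04, adjusted p = 0.0048), and with library totals as the scaling it stood at -0.01 (adjusted p = 0.79). Once GC content and length were corrected for, MSMO1 stood at -0.284 and DHCR7 at -0.155 (adjusted p = 6e-05 and 0.0028). CYP51A1, the lanosterol demethylase, had only 109 to 148 counts in shSIRT1 libraries and 105 to 161 in shfirefly libraries (log2 fold change 0.02, interval -0.30 to 0.34). Its exons overlap 2 other protein-coding genes on the same strand and an antisense gene, which were themselves at 10 counts or fewer in each library. Whether shared reads were left out of the count was not tested, so the level of CYP51A1 is uncertain.

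**Figure D2:**
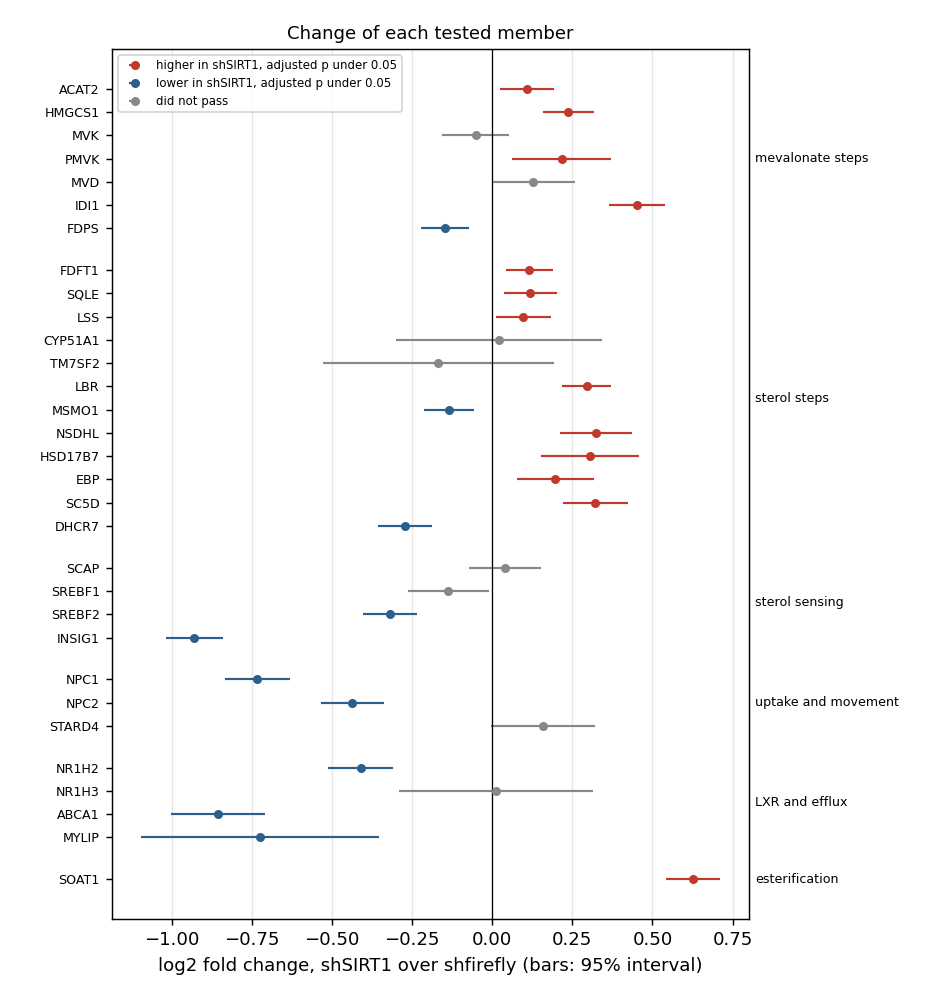
Log2 fold change of each tested member, shSIRT1 over shfirefly, with its 95% interval, from the edgeR fit to 6 libraries. Enzyme changes run from -0.27 for DHCR7 to 0.45 for IDI1, whereas INSIG1, ABCA1, NPC1 and MYLIP lie below -0.7 and SOAT1 lies at 0.63.

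Summed over the 19 enzymes, synthesis transcripts took 0.276%, 0.271% and 0.272% of counts in the shSIRT1 libraries, against 0.230%, 0.239% and 0.242% in the shfirefly libraries. The shares averaged 0.273% ± 0.00297 in shSIRT1 cells and 0.237% ± 0.00598 in shfirefly cells (SD, n = 3 each), and they did not overlap. Shares of raw counts carry the shift of library totals: with totals alone as the scaling the median change was 0.126 over all genes tested and 0.241 over the enzymes, on the log2 scale. Calls over all genes were then 6225 higher and 3022 lower (55.7% called, 37.5% higher and 18.2% lower), in place of 4449 and 4311, and 16 members were higher and 8 lower. Once GC content and length were corrected for, 15 members were higher and 9 lower, beside 28.4% and 24.6% of all genes tested (53.0% called).

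Of the 4 genes of sterol sensing and the SREBP factors none rose, 2 fell and 2 did not pass. So 50% were called, beside 52.8% of all genes tested (26.8% higher and 26.0% lower). INSIG1, which holds SCAP in the endoplasmic reticulum and is itself a classic SREBP target, had 332, 307 and 315 CPM in shSIRT1 libraries, against 587, 646 and 586 CPM in shfirefly libraries. The groups were far apart, with averages of 318 ± 12.8 CPM in shSIRT1 cells and 606 ± 34.3 CPM in shfirefly cells (SD, n = 3 each). INSIG1 was 1.90-fold lower (log2 fold change -0.93 ± 0.04 SE, adjusted p = 4.3e-13), and 5.06% of tested genes had a larger fall. Per kilobase of exon INSIG1 was the most abundant of the members in the controls, at 166 CPM per kilobase in shfirefly cells, and it stood at 87.2 in shSIRT1 cells, below MSMO1 at 99.8. INSIG1 lies on the forward strand of chromosome 7 (155297776 to 155310235, GRCh38), with no annotated gene overlapping it.

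SREBF2, which encodes the SREBP isoform that mainly drives cholesterol genes, had 381, 358 and 349 CPM in shSIRT1 libraries, against 461, 464 and 432 CPM in shfirefly libraries. All 3 shSIRT1 libraries were below the controls, and SREBF2 was 1.25-fold lower (log2 fold change -0.32 ± 0.04 SE, adjusted p = 8.4e-07, and -0.198 with library totals as the scaling). SREBF1, whose products lean towards fatty-acid genes, had 52.5, 49.4 and 45.1 CPM in shSIRT1 libraries and 49.7, 56.0 and 56.1 CPM in shfirefly libraries, which overlap. Its log2 fold change was -0.14 with an interval of -0.26 to -0.01, and it did not pass (adjusted p = 0.066), though it did under 4 of the 17 alternatives. Per kilobase SREBF2 was 7.88 ± 0.293 times SREBF1 in shSIRT1 cells and 8.95 ± 0.855 times in shfirefly cells (SD, n = 3 each), with overlapping libraries. The escort SCAP had a log2 fold change of 0.04 with an interval of -0.07 to 0.15 (adjusted p = 0.56), and it was called higher under 3 alternatives.

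Cholesterol that enters by endocytosis leaves the lysosome through NPC2, a soluble carrier, and NPC1, the membrane protein that takes it over. Both fell. NPC1 had 298, 289.5 and 277 CPM in shSIRT1 libraries, against 511, 484 and 442 CPM in shfirefly libraries. It was 1.66-fold lower (log2 fold change -0.73 ± 0.05 SE, adjusted p = 1.5e-09), with replicate 3 the lowest in each group. NPC2 had 102, 95.1 and 96.8 CPM in shSIRT1 libraries, against 132, 142 and 124 CPM in shfirefly libraries, and was 1.35-fold lower (adjusted p = 1.3e-07). STARD4, which carries sterol between membranes through the cytosol, had 116, 105 and 120.27 CPM in shSIRT1 libraries and 98.5, 94.4 and 112 CPM in shfirefly libraries. Those ranges overlap, and its log2 fold change of 0.16 (interval -0.0024 to 0.32) did not pass (adjusted p = 0.091). STARD4 passed under 8 alternatives, and its sign turned to -0.09 once GC content and length were corrected for.

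Of 4 genes tested in the LXR and efflux arm, 3 fell and NR1H3 did not pass, beside 26.0% called lower and 52.8% called among all genes tested. ABCA1, the transporter that loads cholesterol onto lipid-poor apolipoproteins and is switched on by LXR, had 19.2, 17.04 and 17.7 CPM in shSIRT1 libraries, against 34.4, 33.6 and 29.8 CPM in shfirefly libraries. It was 1.81-fold lower with no overlap (log2 fold change -0.86 ± 0.07 SE, adjusted p = 1.7e-09). MYLIP, an LXR-induced ubiquitin ligase that removes lipoprotein receptors, had 3.09, 2.22 and 2.82 CPM in shSIRT1 libraries, against 5.63, 4.14 and 3.64 CPM in shfirefly libraries. MYLIP was 1.65-fold lower (log2 fold change -0.72 ± 0.18 SE, adjusted p = 0.0018), on 68 to 95 counts in shSIRT1 libraries and 112 to 173 in shfirefly libraries. NR1H2, the broadly expressed LXR beta receptor, had 53.0, 48.3 and 49.5 CPM in shSIRT1 libraries, against 66.0, 68.9 and 65.7 CPM in shfirefly libraries. NR1H2 was 1.33-fold lower (adjusted p = 3.8e-07). NR1H3, the LXR alpha receptor, was scarce and overlapped between groups at 3.52 to 4.11 CPM in shSIRT1 libraries and 3.38 to 4.14 CPM in shfirefly libraries (log2 fold change 0.01, interval -0.29 to 0.31).

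ABCG1, the transporter that passes cholesterol to high-density lipoprotein, was close to absent, with 1 count over the shSIRT1 libraries and 8 over the shfirefly libraries. The ratio over library sizes was 0.127 (95% exact interval 0.00286 to 0.945, counting error only). For a library with 0 counts, 3 counts are about the 1-sided 95% limit of counting error. In these libraries 3 counts would be 0.0967 to 0.115 CPM. Opposite to ABCA1, the only efflux transporter tested among the members, SOAT1, which esterifies cholesterol for storage in droplets, was higher. It had 128, 133 and 125 CPM in shSIRT1 libraries, against 82.4, 83.4 and 84.3 CPM in shfirefly libraries. SOAT1 rose 1.54-fold (log2 fold change 0.63 ± 0.04 SE, adjusted p = 4.0e-11), and 8.17% of tested genes had a larger rise.

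**Figure D3:**
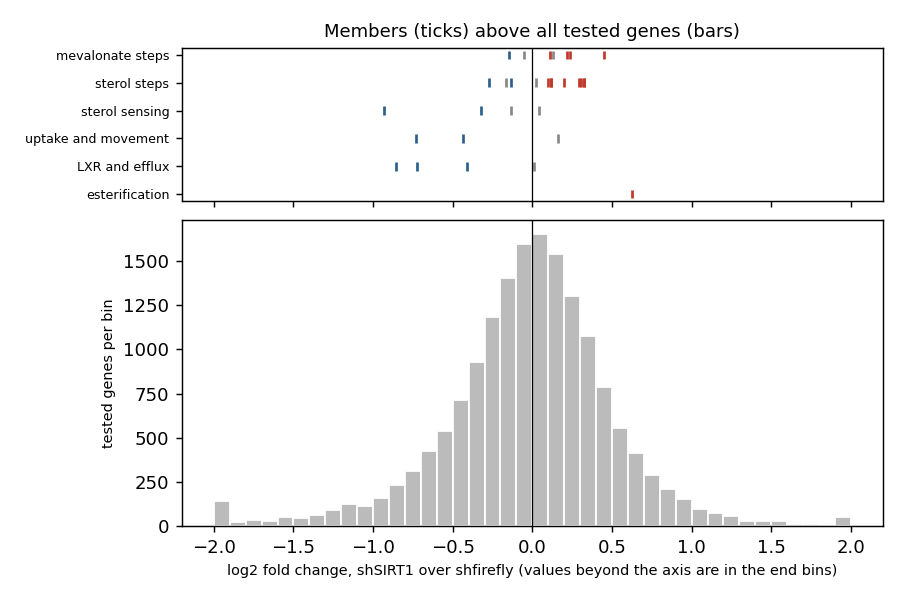
Log2 fold changes of the members, as ticks by role, above those of all 16591 tested genes, as bars of 0.1 on the log2 scale. The enzymes sit in the body of the distribution, and INSIG1, NPC1, ABCA1, MYLIP and SOAT1 sit further out.

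In a ratio between members within a library, the library's scaling factor cancels. An effect of GC content or length on single genes does not cancel. Of the 8 pairs computed, 4 are shown here. They were chosen after their values were seen and carry no test. The IDI1 to FDPS count ratio, for consecutive steps, was 0.573, 0.579 and 0.613 in shSIRT1 libraries, against 0.372, 0.395 and 0.398 in shfirefly libraries. SC5D to DHCR7, late steps of the chain, gave 0.478, 0.451 and 0.523 in shSIRT1 libraries, against 0.310, 0.317 and 0.334 in shfirefly libraries. In both pairs the enzyme named first gained on the other, and it had the lower GC content. GC content was 41.1% for IDI1 and 56.0% for FDPS, and 38.6% for SC5D and 58.3% for DHCR7. With GC content and length corrected for, IDI1 stood at 0.363 on the log2 scale and FDPS at -0.031, in place of 0.451 and -0.147. SC5D then stood at 0.181 and DHCR7 at -0.155, in place of 0.322 and -0.272, so both gains were smaller. SOAT1 to ABCA1, storage against efflux, gave 6.66, 7.81 and 7.05 in shSIRT1 libraries, against 2.40, 2.49 and 2.83 in shfirefly libraries. INSIG1 to SREBF2 gave 0.871, 0.860 and 0.903 in shSIRT1 libraries, against 1.27, 1.39 and 1.36 in shfirefly libraries, so INSIG1 fell by more than SREBF2. GC content differed in these pairs too: 40.0% for SOAT1 and 45.5% for ABCA1, and 46.0% for INSIG1 and 57.1% for SREBF2. Over the 17 alternatives, that correction among them, SOAT1 stood at 0.48 to 0.747 and ABCA1 at -0.926 to -0.733. INSIG1 then stood at -0.978 to -0.807 and SREBF2 at -0.369 to -0.198.

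**Figure D4:**
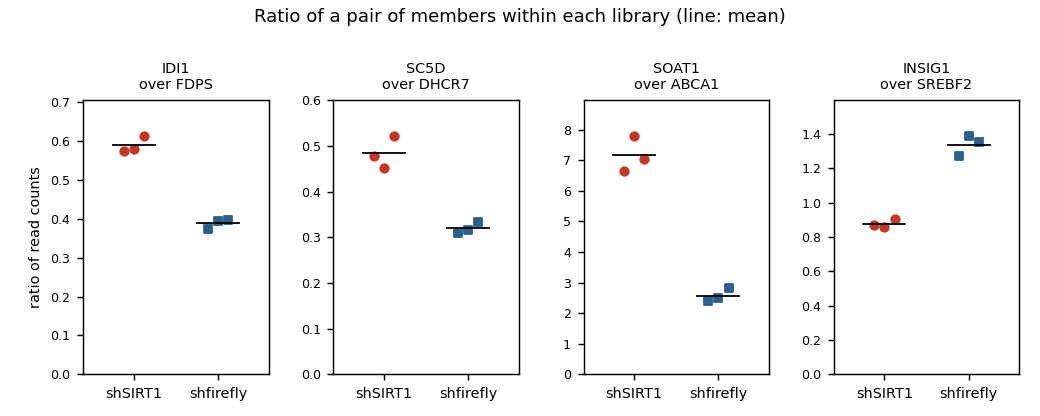
Ratio of the read counts of 2 members within each library, with shSIRT1 libraries left of shfirefly libraries and the mean as a line; each axis starts at 0. The groups do not overlap in any of the 4 panels, and the SOAT1 to ABCA1 ratio runs from 6.66 to 7.81 in shSIRT1 libraries and from 2.40 to 2.83 in shfirefly libraries.

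Of 49 further pathway genes tested, 13 rose, 21 fell and 15 did not pass, with a median log2 fold change of -0.11. So 69.4% were called, beside 52.8% of all genes tested (26.8% higher and 26.0% lower). Among genes averaging at least 10 CPM, 67.3% were called (36.5% higher and 30.8% lower), close to the share of this list. Of 18 uptake and movement genes, 12 fell and 2 rose. LRP1, a large endocytic receptor, fell by 0.82 on the log2 scale and VLDLR, a lipoprotein receptor, by 0.72 (adjusted p = 1.2e-07 and 2.0e-11). LRP8, a related receptor, rose by 0.64 and TMEM97, a sterol-responsive partner of NPC1, by 0.35 (adjusted p = 1.7e-10 and 6.5e-06). Among 12 genes of SREBP control, 5 rose and 5 fell. INSIG2, the second INSIG gene, had 155, 143 and 153 CPM in shSIRT1 libraries, against 254, 269.8 and 245 CPM in shfirefly libraries, and fell by 0.77 (adjusted p = 3.9e-12), so both INSIG transcripts were lower. MBTPS2, a protease that releases SREBP in the Golgi, rose by 0.67 (adjusted p = 1.8e-10). MBTPS1, the other protease of that release, was lower (log2 fold change -0.27, adjusted p = 1.2e-05). MBTPS2 exons overlap those of YY2 on the same strand, so reads of MBTPS2 may be shared. PAQR3, a Golgi anchor of the SCAP complex, rose by 0.62 (adjusted p = 1.4e-07, and 0.337 with GC content and length corrected for). The ubiquitin ligase gene RNF139 fell by 0.31 (adjusted p = 7.8e-05, and -0.186 with library totals as the scaling).

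Of 11 genes in the branches that lead from farnesyl diphosphate to other products, 4 rose, 1 fell and 6 did not pass. So 45.5% were called, below the 52.8% of all genes tested and the 67.3% of those averaging at least 10 CPM. PDSS1 and PDSS2 encode subunits of the enzyme that builds the ubiquinone tail, and they parted. PDSS1 rose by 0.61 on the log2 scale (adjusted p = 0.00017) while PDSS2 fell by 0.31 (adjusted p = 0.0038), a call that was lost with library totals as the scaling (-0.186, adjusted p = 0.064). NUS1, a subunit of the dolichol-forming transferase, rose by 0.40 (adjusted p = 7.1e-07), and by 0.221 with GC content and length corrected for. Among 8 tested efflux, storage and accessory genes 2 rose and 3 fell. NCEH1, which releases cholesterol from its esters, rose by 0.31 and the ABC transporter gene ABCA3 by 0.21 (adjusted p = 1.4e-05 and 0.023, the call of ABCA3 being lost under 5 alternatives), while RXRB, a partner of LXR, fell by 0.36 and the transporter gene ABCA2 by 0.31 (adjusted p = 0.0014 and 3.5e-05), both by less with library totals as the scaling (-0.240 and -0.191).

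Promoters are shown for members that moved in opposite directions, because SREBP factors act there together with NF-Y. RefSeq sequences (GRCh38.p14) matched 28 of the 32 members; ACAT2, FDFT1, SQLE and ABCG1 did not match. The 250 bases before the RefSeq start are printed 5′ to 3′ on the gene's strand, with capitals for CCAAT (NF-Y) or TCACNCCAC (a sterol regulatory element), searched on both strands, so that ATTGG marks CCAAT on the other strand. The RefSeq starts used lie downstream of the GENCODE 29 gene starts for all of those shown, so each window runs into the GENCODE gene.
INSIG1 (lower, chr7:155297628-155297877, forward): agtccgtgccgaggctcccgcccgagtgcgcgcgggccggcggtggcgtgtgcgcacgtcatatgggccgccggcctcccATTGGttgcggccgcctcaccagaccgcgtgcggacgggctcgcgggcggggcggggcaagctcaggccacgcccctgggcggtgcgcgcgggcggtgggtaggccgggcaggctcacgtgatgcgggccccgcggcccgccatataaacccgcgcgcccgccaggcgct
SREBF2 (lower, chr22:41832855-41833104, forward): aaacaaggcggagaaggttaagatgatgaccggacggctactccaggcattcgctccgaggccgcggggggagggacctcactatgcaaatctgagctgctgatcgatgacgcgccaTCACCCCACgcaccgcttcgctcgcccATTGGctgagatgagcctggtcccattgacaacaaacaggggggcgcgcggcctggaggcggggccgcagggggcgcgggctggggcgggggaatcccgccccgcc
NSDHL (higher, chrX:152830813-152831062, forward): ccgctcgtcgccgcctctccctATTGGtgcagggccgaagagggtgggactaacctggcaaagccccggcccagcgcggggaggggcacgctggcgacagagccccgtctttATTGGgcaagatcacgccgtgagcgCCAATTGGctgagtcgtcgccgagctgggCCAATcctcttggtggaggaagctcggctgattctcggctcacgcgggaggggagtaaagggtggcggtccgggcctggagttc
MSMO1 (lower, chr4:165327419-165327668, forward): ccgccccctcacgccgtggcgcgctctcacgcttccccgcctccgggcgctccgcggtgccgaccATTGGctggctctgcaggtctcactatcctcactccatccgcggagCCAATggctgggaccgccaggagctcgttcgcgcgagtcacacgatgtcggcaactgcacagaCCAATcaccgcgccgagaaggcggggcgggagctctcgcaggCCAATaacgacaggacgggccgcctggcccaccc
SOAT1 (higher, chr1:179293547-179293796, forward): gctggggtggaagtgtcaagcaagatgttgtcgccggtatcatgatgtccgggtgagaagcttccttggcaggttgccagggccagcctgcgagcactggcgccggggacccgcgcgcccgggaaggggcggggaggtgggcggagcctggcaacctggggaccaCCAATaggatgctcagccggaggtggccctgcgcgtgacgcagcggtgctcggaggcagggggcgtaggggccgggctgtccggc

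CCAAT lay in at least 1 promoter of 20 of the 28 members, among them 8 of 10 that rose, 7 of 10 that fell and 5 of 8 that did not pass. It was present in 41.8% of 11139 tested genes with a promoter, and in 32% of all 35116 promoters. NSDHL, which rose, held 5 matches, 2 of them overlapping, and MSMO1, which fell, held 4. TCACNCCAC was found for SREBF2 alone of the members, beside 1.19% of tested genes with a promoter and 0.883% of all promoters. Sterol regulatory elements of other spellings were not searched for. The Sp1 word GGGCGG was found for 26 of the 28 members, beside 72.7% of tested genes with a promoter and 42.6% of all promoters. The hypoxia response core ACGTG was found for SC5D, DHCR7, SCAP, INSIG1, STARD4 and ABCA1, 6 of the 28, beside 28.2% of tested genes with a promoter and 18.5% of all promoters. The direct repeats bound by LXR, searched in 2 exact spellings, were found for no member, and one of them was in 0.0142% of all promoters. A match is a stretch of letters and not a measured site, and genes with several annotated starts had more chances to match.

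Of the members, 11 were higher, 10 lower and 10 not past an adjusted p of 0.05 in the authors' deposited table, which gives no adjusted p for ABCG1. The calls there differed for 4 members: ACAT2, PMVK and LSS did not pass in that table, and STARD4 did (adjusted p = 0.0398). DESeq2 run here also gave 11 higher and 10 lower, beside 20.7% and 19.5% of 18853 genes tested (40.1% called). Log2 fold changes in the authors' deposited table differed from those given here by at most 0.00215 over the tested members.

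**Figure D5:**
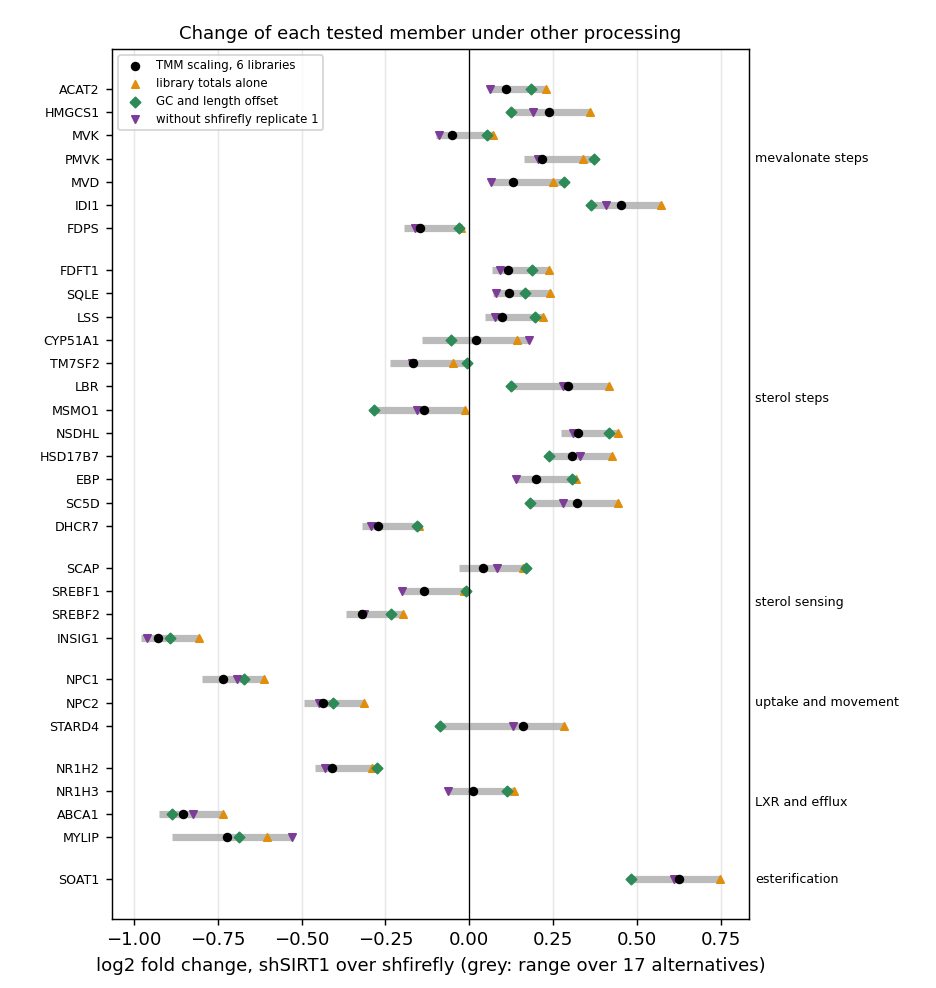
Log2 fold change of each tested member, shSIRT1 over shfirefly, under TMM scaling with 6 libraries (black) and under other processing, with a grey bar for the range over 17 alternatives. INSIG1 stays between -0.98 and -0.81 and SOAT1 between 0.48 and 0.75, whereas the bars of MVK, CYP51A1, SCAP, STARD4 and NR1H3 cross 0.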

How the data were processed

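One table of the whole series was used. Its counts per gene are the authors' raw read counts, deposited as whole numbers. The authors' fold change (ratio), log2 fold change and p-values, raw and adjusted, come from the same deposited table and were used for 1 comparison of calls. Trimmomatic, STAR and DESeq2 are named, with build GRCh38, per the submitters' processing notes. Not given in the sources used here are the read counter, versions, annotation release and strand setting, so reads of overlapping genes may be mixed. A further 6 columns of the authors' normalized values per sample were not used.

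Columns were matched to samples by name. Members were matched by the symbol in the table, and coordinates, exon lengths, GC content and overlaps came from GENCODE 29 (GRCh38), matched by Ensembl identifier without version. Members and lists were chosen with earlier results of these data known. Of 53 further pathway symbols 52 matched a gene.

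Counts were filtered with filterByExpr, scaled by TMM and tested with edgeR 4.0.16 (R 4.3.3) with glmQLFTest after a robust quasi-likelihood fit, group being the only term. Benjamini-Hochberg adjustment ran over all 16591 genes tested, and calls were made under 0.05. Standard errors are the absolute log2 fold change over the square root of F. DESeq2 1.42.0 was an alternative, as were other scalings, filters, a replicate block, a correction for GC content and length (a spline for each library with 5 degrees of freedom, both values being known for 99.1% of genes) and leaving out libraries. Pairs of libraries differed beyond sampling noise, with a chi-square per gene of 2.79 to 6.05 for pairs of 1 group and 57.4 to 89.9 across groups, so each library counted as 1 replicate. Named genes were all members, SIRT1, EPAS1 and, from each of 4 lists of other pathway genes, up to 2 rising and 2 falling called genes with the largest change. HSD17B7P2, MBTPS1 and the genes overlapping CYP51A1 were added after their values were seen.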

Additional observations from a re-analysis of the deposited data

How the results depend on the processing

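Of the 23 members that changed, 15 kept their direction and their call under all 17 alternatives: 7 that rose (HMGCS1, IDI1, LBR, NSDHL, HSD17B7, SC5D and SOAT1) and 8 that fell (DHCR7, SREBF2, INSIG1, NPC1, NPC2, NR1H2, ABCA1 and MYLIP). With upper-quartile factors 8 members were higher, in place of 13, with 3 mevalonate steps changed (2 higher) and 5 sterol steps higher; this scaling moved all genes, with a median of -0.045 and 3813 genes higher and 4984 lower. Leaving out 1 library in turn gave 7 to 14 members higher, 3 to 6 mevalonate steps changed (2 to 5 higher), 6 to 10 sterol steps changed and 4 to 8 higher, the lowest counts each without shfirefly replicate 1. DESeq2 gave 3 mevalonate steps changed and 2 higher. No mevalonate step was lower with library totals alone (0), once GC content and length were corrected for (0), or with that correction and the replicate block (0), and with library totals alone 1 sterol step was lower. The cause was not tested.

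Members that did not pass changed sign in places. MVK was 0.07 with library totals, 0.054 with the GC and length correction and 0.056 with that and the block. CYP51A1 was -0.029 with upper-quartile factors, -0.054 with the correction, -0.050 with that and the block, -0.10 without both libraries numbered 3, and -0.14 to 0.18 when 1 library was left out. SCAP was -0.01 with upper-quartile factors, -0.009 without both libraries numbered 3, and -0.032 (without shfirefly replicate 3) to 0.082 when 1 library was left out. STARD4 was -0.088 with the correction and -0.089 with that and the block. NR1H3 was -0.038 with upper-quartile factors and -0.064 to 0.089 when 1 library was left out.

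Same-numbered libraries of the groups did not deviate together (correlations of deviations across genes of -0.01, -0.07 and 0.13 for replicates 1, 2 and 3). Differently numbered libraries gave -0.154 to 0.171. Such correlations cannot show whether the samples were prepared in pairs. With the replicate block 14 members were higher and 10 lower, STARD4 being the added call, and 4711 genes were higher and 4465 lower. Depth limited MYLIP, TM7SF2, CYP51A1 and NR1H3, the tested members with the fewest counts and the widest intervals.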
